A study of Homo sapiens with 3 samples.

Results

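Ribosome biogenesis and RNA polymerase I genes, a list of 40 symbols, were described in FaDu cells treated with a plant extract. A gene was taken through all probe sets whose annotation named that gene and no other. In this way 39 of the 40 genes were found, of 18132 genes named on the array, and they had 107 probe sets of their own. GNL3 had no probe set of its own and is not analysed here. FaDu cells are a long-established line, grown from a squamous tumour of the hypopharynx. A single culture had been kept for 48 h with 10 µg/ml of NSC-631570, an extract of greater celandine (Chelidonium majus) used at its half-maximal effective dose, and 2 untreated controls had been incubated for the same time with distilled water. Total RNA of each, 100 ng, was hybridised to an expression array, which gave 1 NSC-631570 array and 2 untreated arrays, called untreated 1 and untreated 2. All groups were the same line in the same medium, and no other agent is named.

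Ribosomes are assembled in the nucleolus. RNA polymerase I transcribes the precursor of the large ribosomal RNAs, small nucleolar ribonucleoproteins (snoRNPs) guide its chemical modification, and a large set of assembly factors fold and cut it into the small and the large subunit. The transcription factor MYC, with its partner MAX, is known to activate many genes of this pathway, and carcinoma cells that divide quickly need many ribosomes.

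Values are log2 signals per probe set, so a difference of 1 is a doubling. Deposited values ran from 2.92 to 14.95, and the array medians were 6.55 in NSC-631570 cells and 6.62 and 6.57 in untreated cells. The treated condition has no replicate, and the labels do not say whether the untreated arrays came from separate cultures. Standard errors and p-values therefore rest on the spread between the untreated arrays, which may be technical, and less RNA of a gene per cell cannot be told apart from fewer cells that express it. All 7 epithelial markers that had a probe set of their own passed the signal filter of 5.85, which by itself does not show identity. KRT5 was at 12.91 in NSC-631570 cells and 13.21 and 13.39 in untreated cells. PKP1 was weaker, at 7.93 in NSC-631570 cells and 7.43 and 6.54 in untreated cells. KRT17, KRT6A and TP63 were not analysed here. The leukocyte marker PTPRC was at 3.78 in NSC-631570 cells and 3.72 and 3.72 in untreated cells, near the lowest values of the arrays. The other leukocyte markers did not all stay low: 3 of the 5 found passed the filter, and all 3 lay above both untreated arrays without passing limma over all genes. CD68, which is also known in lysosomes of other cells, was at 9.53 in NSC-631570 cells and 7.61 and 8.55 in untreated cells, and CD14 was at 7.42 in NSC-631570 cells and 7.03 and 6.17 in untreated cells. Of 6 fibroblast markers 2 passed the filter, and of 4 endothelial markers 3, with differences between −0.27 and 0.09. The part of these markers in the results was not tested. Among the array's own controls, the 5′ probe set for ACTB differed from the untreated mean by −1.37 on the log2 scale and the 3′ one by 0.20, and those for GAPDH differed by −0.48 (5′) and −0.01 (3′). They come from the same array as every treated value below, and their part in the results was not tested.

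The NSC-631570 array lay below both untreated arrays for most members, and the members did not move as a block. With each gene taken by its brightest probe set, all 39 genes found passed the filter. Of these, 21 lay below both untreated arrays, 14 above both and 4 between them. Among all 11932 tested genes the share below both was 22.5% and the share above both 51.6%, against 53.8% and 35.9% of the members. The same 22.5% and 51.6% are the background for the counts of genes by role and by list below. The median log2 difference of the members was −0.10, and that of all tested genes was 0.12. The difference was −0.07 from each untreated array taken singly. No member passed limma with Benjamini-Hochberg adjustment over all genes at 0.05 (smallest adjusted p = 0.132), where 8 genes of the array, or 0.067%, did. At an unadjusted p under 0.05 limma counted 6 members lower and 1 higher, where the background was 2.24% lower and 12.2% higher. The lower ones were NOP14, MRTO4, NOP58, WDR43, NOP2 and UTP20, and the higher one was TCOF1.

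**Figure D1:**
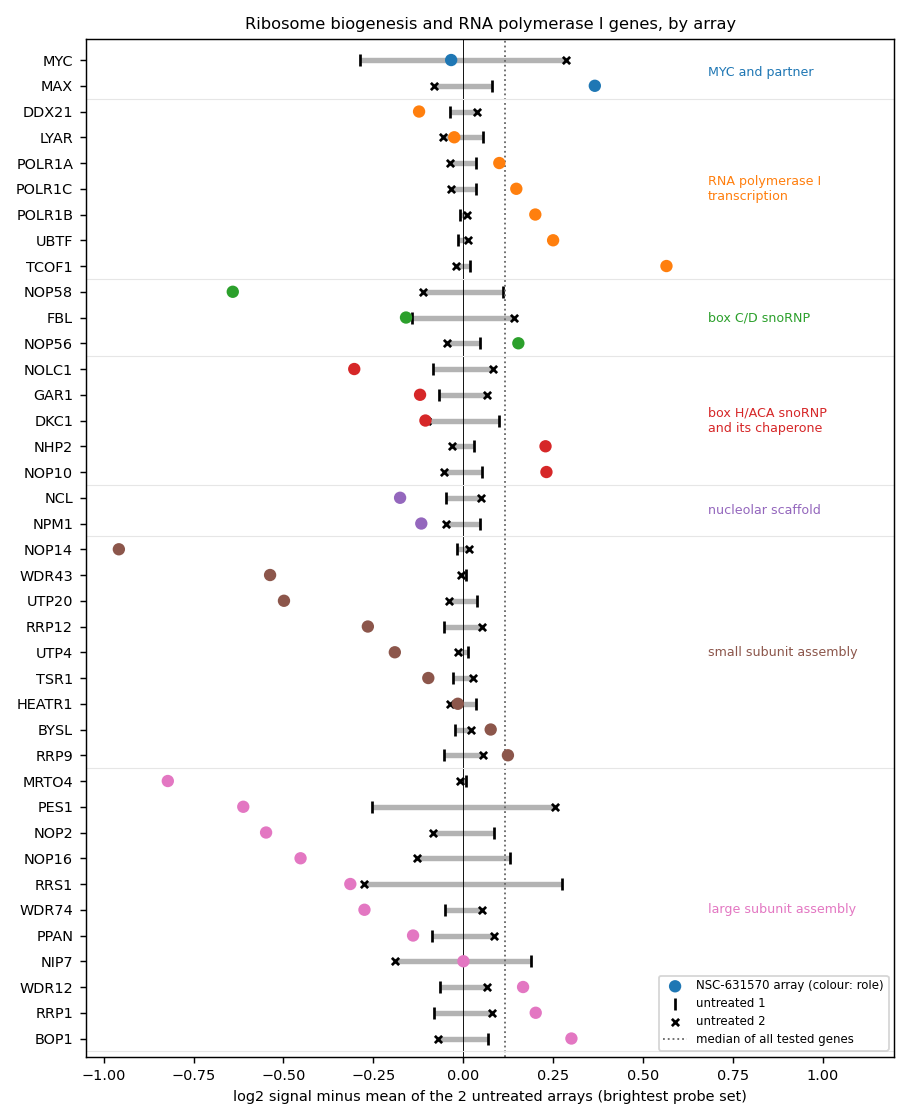
Log2 signal of the brightest probe set of 39 ribosome biogenesis and RNA polymerase I genes, as the distance from the mean of the 2 untreated arrays (horizontal axis), with genes down the page by role. Coloured points are the NSC-631570 array, black marks the untreated arrays, grey bars the range between them and the dotted line the median difference of all tested genes (0.12). Points for NOP14, MRTO4, NOP58 and PES1 lie farthest left, and TCOF1 lies farthest right.

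The promoters of the members were read for the E-box CACGTG, the letters that MYC and MAX are known to bind, because many genes of this pathway are known MYC targets. Windows came from RefSeq (GRCh38.p14) and run from 250 bases before a gene's start to 50 after it. The search was for CACGTG exactly, which reads the same on both strands, without regard to overlap with other motifs. Of the 40 symbols, 33 had at least 1 window, and 15 of these genes (45.5%) held the letters. Among tested genes of the array with a window the share was 12.5%. Counted by window it was 34.9% of the 43 member windows and 7.26% of all 35116 windows. NOP58, RRP12, BOP1, MYC, RRS1, NOLC1 and TCOF1 had no entry. Shown here are the 15 sites of the 14 tested genes, from the most lowered gene to the highest, with up to 22 bases on either side and the E-box in capitals.
NOP14 (chr4:2963364-2963413, minus strand): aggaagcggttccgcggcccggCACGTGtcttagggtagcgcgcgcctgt
MRTO4 (chr1:19251797-19251846, plus strand): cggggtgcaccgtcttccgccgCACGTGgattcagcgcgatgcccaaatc
PES1 (chr22:30591870-30591919, minus strand): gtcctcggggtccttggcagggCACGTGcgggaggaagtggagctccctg
NOP2 (chr12:6568242-6568278, minus strand): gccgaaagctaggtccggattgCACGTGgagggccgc
WDR43 (chr2:28894648-28894697, plus strand): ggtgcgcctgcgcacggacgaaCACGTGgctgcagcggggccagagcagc
UTP20 (chr12:101280073-101280122, plus strand): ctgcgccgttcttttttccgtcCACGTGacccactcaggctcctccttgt
UTP4 (chr16:69132611-69132660, plus strand): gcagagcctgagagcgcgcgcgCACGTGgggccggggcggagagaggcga
FBL (chr19:39846346-39846395, minus strand): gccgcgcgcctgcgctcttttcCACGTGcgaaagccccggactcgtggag
DDX21 (chr10:68956594-68956643, plus strand): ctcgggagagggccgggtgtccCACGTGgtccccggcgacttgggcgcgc
GAR1 (chr4:109815771-109815811, plus strand): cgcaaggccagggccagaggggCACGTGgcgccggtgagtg
LYAR (chr4:4290058-4290107, minus strand): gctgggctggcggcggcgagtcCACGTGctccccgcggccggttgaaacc
BYSL (chr6:41921505-41921548, plus strand): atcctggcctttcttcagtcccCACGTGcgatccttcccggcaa
RRP9 (chr3:51941882-51941931, minus strand): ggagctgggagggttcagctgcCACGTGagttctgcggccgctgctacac
NOP10 (chr15:34343120-34343169, minus strand): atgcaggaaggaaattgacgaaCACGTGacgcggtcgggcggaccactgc
NOP10 (chr15:34343279-34343328, minus strand): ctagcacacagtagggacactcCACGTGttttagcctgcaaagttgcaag

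Of these 15 sites, 7 lay before the annotated start and 8 at or after it, from 170 bases before to 35 bases after. All but the upstream site of NOP10 lay within 64 bases of the start. Among the 14 genes with the letters, 10 lay below both untreated arrays and 3 above both, and their median difference was −0.17. Among the 18 tested members whose windows lack the letters, 7 lay below both and 9 above both, with a median of 0.05. Of the 7 tested members without a window, 4 lay below both and 2 above both. Their median was −0.27, lower than in the genes with the letters, and whether they hold the letters is not known here. No test was made of the contrast between genes with and without the letters. It rests on the brightest probe sets. By the mean of all probe sets of a gene, also those under the filter, MAX (−0.19), POLR1A (−0.59), RRP1 and WDR12 turned lower than the untreated mean. All 4 lack the letters, and no gene with them changed sign in that way. WDR12 did so only through a probe set under the filter (−0.22), and its probe sets past the filter stood at 0.17 and 0.04. Over all tested genes the medians were 0.11 with the letters and 0.12 without. The whole windows are shown for NOP14 and MRTO4, the 2 members with the lowest differences, with the E-box in capitals.
NOP14 (chr4:2963357-2963656, minus strand): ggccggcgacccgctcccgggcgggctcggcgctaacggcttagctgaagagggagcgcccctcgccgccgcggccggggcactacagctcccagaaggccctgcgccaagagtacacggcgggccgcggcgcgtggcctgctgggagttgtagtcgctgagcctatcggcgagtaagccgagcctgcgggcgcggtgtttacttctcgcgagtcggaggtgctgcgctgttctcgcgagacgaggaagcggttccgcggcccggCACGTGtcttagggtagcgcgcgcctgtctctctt
MRTO4 (chr1:19251555-19251854, plus strand): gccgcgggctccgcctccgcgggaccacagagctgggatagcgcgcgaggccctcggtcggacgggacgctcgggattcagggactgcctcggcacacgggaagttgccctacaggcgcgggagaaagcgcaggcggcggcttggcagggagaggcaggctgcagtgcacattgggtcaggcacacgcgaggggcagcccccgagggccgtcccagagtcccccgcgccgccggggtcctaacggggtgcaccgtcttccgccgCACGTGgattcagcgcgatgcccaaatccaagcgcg

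**Figure D2:**
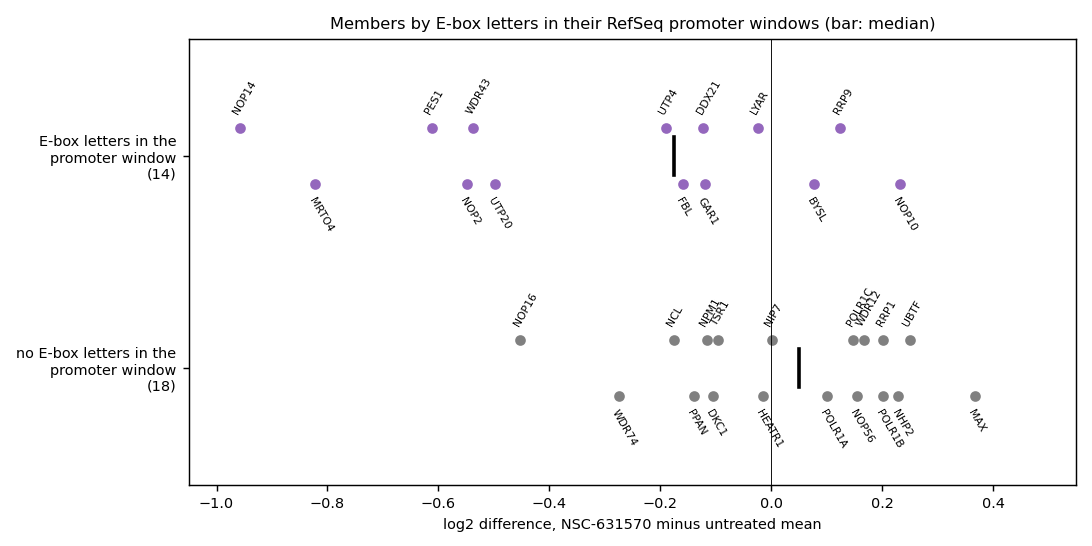
Log2 difference between the NSC-631570 array and the untreated mean (horizontal axis) for tested members with (14, upper row) and without (18, lower row) the E-box letters in their promoter windows, with 1 point for each gene and a bar at each median (−0.17 and 0.05). The 6 lowest genes in the plot (NOP14, MRTO4, PES1, NOP2, WDR43 and UTP20) all stand in the upper row, beside RRP9, BYSL and NOP10 above 0. Each gene is read from its brightest probe set. The 7 tested members without a window are not plotted, and their differences run from −0.64 (NOP58) to 0.57 (TCOF1).

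MYC itself lay inside its untreated range. MYC is measured by 1 probe set of its own, at 12.09 in NSC-631570 cells and 11.83 and 12.41 in untreated cells. The treated value lay between the untreated ones, which differed by 0.57, more than in any other member. MAX, the obligate partner of MYC, was at 10.37 in NSC-631570 cells and 10.08 and 9.92 in untreated cells on its brightest probe set, a difference of 0.37 ± 0.22 (SE from limma, 1 array against 2). Its 7 other probe sets past the filter all lay below both untreated arrays, from −0.71 to −0.03, with a median of −0.51. The probe sets of MAX thus pointed in opposite directions. Taken by the probe set that was brightest in untreated cells alone, MAX differed by −0.03. By the mean of all its probe sets, also those under the filter, it differed by −0.19.

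On their brightest probe sets most genes of RNA polymerase I transcription lay above both untreated arrays. Of 7 genes, 5 lay above both untreated arrays and 1 below both, with a median of 0.15, close to the 0.12 of all tested genes. The count depends on the probe sets: 5 of the 7 were higher than the untreated mean, but 3 were by the mean of each gene's probe sets, where POLR1A (−0.59) and TCOF1 (−0.11) were lower. With arrays centred on the tested genes 3 were higher too, with POLR1A at −0.10 and POLR1C at −0.048. POLR1B, the second-largest subunit of the enzyme, was at 9.51 in NSC-631570 cells and 9.30 and 9.32 in untreated cells. All 6 of its probe sets lay above both untreated arrays (differences from 0.09 to 0.35), which also holds for the 3 probe sets of BYSL, of which 1 passed the filter, and for no other member with several. POLR1C, a subunit shared with RNA polymerase III, was at 9.85 in NSC-631570 cells and 9.73 and 9.66 in untreated cells, and its other probe sets stood at 0.31 and −0.03.

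POLR1A, the largest subunit, gave opposite readings. Its brightest probe set was at 8.70 in NSC-631570 cells and 8.63 and 8.56 in untreated cells. Its other probe set fell to 5.67 in NSC-631570 cells, against 7.05 and 6.84 in untreated cells, a difference of −1.28 ± 0.23 (2.43-fold lower, limma over all probe sets, adjusted p = 0.0322). The probe sets of POLR1A thus disagreed, and the treated value of the second lies under the filter of 5.85.

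UBTF, the factor that keeps ribosomal DNA open for RNA polymerase I, was at 9.04 in NSC-631570 cells and 8.77 and 8.80 in untreated cells. Its 4 probe sets were all higher than the untreated mean (0.16 to 0.47), 3 of them above both untreated arrays. TCOF1, the treacle scaffold of ribosomal DNA transcription, had the highest difference of all members, with 10.08 in NSC-631570 cells and 9.54 and 9.50 in untreated cells (0.57 ± 0.21, 1.48-fold higher, limma adjusted p = 0.284). Its 4 other probe sets stood from −0.52 to −0.08, and the probe set that was brightest in untreated cells was 0.36 lower (−0.36). The helicase DDX21 was at 13.06 in NSC-631570 cells and 13.15 and 13.22 in untreated cells, with all 3 probe sets below both. LYAR, a nucleolar zinc finger protein, was at 11.46 in NSC-631570 cells and 11.54 and 11.43 in untreated cells, inside the untreated range.

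The proteins of the box C/D snoRNP, which methylates ribosomal RNA, diverged from each other. NOP58, a core protein of the particle, was at 11.45 in NSC-631570 cells and 12.20 and 11.98 in untreated cells (−0.64 ± 0.22, 1.56-fold lower, limma adjusted p = 0.257). Its other probe set fell to 9.10 in NSC-631570 cells, against 10.35 and 10.25 in untreated cells (−1.20 ± 0.22, 2.30-fold lower, adjusted p = 0.0359 over all probe sets). On both of its probe sets NOP58 was thus below both untreated arrays. Of single probe sets of the array 34.5% were, and the share of genes with every probe set below both was not counted. NOP56, the paralog that sits beside NOP58 in the particle, was at 12.37 in NSC-631570 cells and 12.27 and 12.17 in untreated cells, and all 4 of its probe sets were higher than the untreated mean (0.07 to 0.16). The methyltransferase FBL (fibrillarin) was at 12.61 in NSC-631570 cells and 12.63 and 12.91 in untreated cells. Its distance to untreated 1 was smaller than the gap of 0.28 between the untreated arrays.

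The box H/ACA snoRNP converts uridine to pseudouridine. Counted together with the chaperone NOLC1, 3 of 5 genes lay below both untreated arrays and 2 above both. The 3 were DKC1, GAR1 and NOLC1. The pseudouridine synthase DKC1 was at 12.27 in NSC-631570 cells and 12.47 and 12.27 in untreated cells, so it barely left the untreated range. GAR1 was at 10.31 in NSC-631570 cells and 10.37 and 10.50 in untreated cells. NHP2 was at 12.57 in NSC-631570 cells and 12.37 and 12.31 in untreated cells, with another probe set at −0.18. NOP10, the smallest protein of the particle, was at 12.28 in NSC-631570 cells and 12.10 and 11.99 in untreated cells. These differences ran from −0.12 for GAR1 to 0.23 for NOP10, none much larger than 1 standard error of the fit (0.22). The snoRNP chaperone NOLC1 was at 12.11 in NSC-631570 cells and 12.33 and 12.49 in untreated cells, and all 3 of its probe sets lay below both untreated arrays (−0.73 to −0.30).

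Both nucleolar scaffold genes were below both untreated arrays on their brightest probe sets. NCL (nucleolin) was at 13.30 in NSC-631570 cells and 13.43 and 13.53 in untreated cells (−0.18), and its other probe set at 12.06 in NSC-631570 cells and 13.01 and 13.04 in untreated cells (−0.96, adjusted p = 0.0639 over all probe sets). NPM1 (nucleophosmin) was at 13.78 in NSC-631570 cells and 13.95 and 13.85 in untreated cells. Of its 6 probe sets 5 lay below both, and the differences ran from −0.37 to 0.00. NPM1 is known to have processed pseudogenes, and 4 of its probe sets carry the maker's x suffix, for probes that may also bind transcripts of other genes.

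Among 9 small subunit assembly factors 6 lay below both untreated arrays and 2 above both, with a median of −0.19. NOP14, a protein of the small subunit processome whose promoter window is printed above, was at 7.20 in NSC-631570 cells and 8.14 and 8.17 in untreated cells (−0.96 ± 0.21, 1.94-fold lower, limma adjusted p = 0.132), the lowest difference of the members by brightest probe set. A further probe set fell to 6.06 in NSC-631570 cells, against 7.33 and 7.37 in untreated cells (−1.29 ± 0.22, adjusted p = 0.0276 over all probe sets), and the remaining one differed by −0.50. All 3 probe sets of NOP14 lay below both untreated arrays. Of single probe sets of the array 34.5% did, and the share of genes with every probe set below both was not counted.

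WDR43, a processome subunit linked to RNA polymerase I transcription, was at 9.34 in NSC-631570 cells and 9.88 and 9.87 in untreated cells (−0.54), and its other probe set differed by −0.64. UTP20, a processome scaffold, was at 7.99 in NSC-631570 cells and 8.52 and 8.45 in untreated cells (−0.50). RRP12, in yeast a factor for export of pre-ribosomes, was at 9.99 in NSC-631570 cells and 10.21 and 10.31 in untreated cells, and all 3 of its probe sets lay below both (−0.42 to −0.27). WDR43 and RRP12 were each below the untreated range on every probe set of their own, and UTP20 has only 1. UTP4, another processome protein, was at 10.91 in NSC-631570 cells and 11.12 and 11.09 in untreated cells. TSR1, a late-acting GTPase-like factor, was at 11.14 in NSC-631570 cells and 11.21 and 11.27 in untreated cells, so both were also below both untreated arrays. The U3 snoRNP protein RRP9 was at 9.04 in NSC-631570 cells and 8.86 and 8.97 in untreated cells, and BYSL, needed for late small subunit steps, at 9.90 in NSC-631570 cells and 9.81 and 9.85 in untreated cells. HEATR1, which links the processome to RNA polymerase I, lay inside the untreated range (−0.01).

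Large subunit assembly factors held the lowest median of the role groups (−0.27): 7 of 11 lay below both untreated arrays and 3 above both. MRTO4, which holds the place of the ribosomal stalk during assembly, was at 9.61 in NSC-631570 cells and 10.44 and 10.43 in untreated cells (−0.82 ± 0.21, 1.77-fold lower, limma adjusted p = 0.158). Its other probe set fell to 6.10 in NSC-631570 cells, against 7.89 and 7.46 in untreated cells (−1.57 ± 0.25, 2.98-fold lower, adjusted p = 0.0243 over all probe sets). Both probe sets of MRTO4 were thus outside the untreated range, the dimmer by more. NOP2, which methylates the large ribosomal RNA, was at 8.61 in NSC-631570 cells and 9.25 and 9.08 in untreated cells (−0.55), and its 3 probe sets agreed closely (−0.61 to −0.55). NOP16 was at 10.67 in NSC-631570 cells and 11.25 and 11.00 in untreated cells (−0.45), but its other probe set stood at −0.04.

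The PeBoW complex, in which PES1, BOP1 and WDR12 act together on the large subunit precursor, was split. PES1 was at 9.03 in NSC-631570 cells and 9.39 and 9.90 in untreated cells (−0.61 ± 0.27, limma adjusted p = 0.347). BOP1 was at 10.77 in NSC-631570 cells and 10.54 and 10.40 in untreated cells (0.30 ± 0.22). WDR12 was at 10.30 in NSC-631570 cells and 10.07 and 10.20 in untreated cells (0.17 ± 0.22). PES1 was below and its partners above both untreated arrays, and none of the 3 passed the test.

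RRP1, a nucleolar factor of large subunit processing, repeated the pattern of POLR1A. Its brightest probe set was at 9.53 in NSC-631570 cells and 9.25 and 9.41 in untreated cells. A dimmer probe set fell to 7.05 in NSC-631570 cells, against 8.24 and 8.68 in untreated cells (−1.41 ± 0.26, 2.65-fold lower, adjusted p = 0.0359 over all probe sets), and the remaining one stood at −0.14. RRS1, in yeast a factor that brings the 5S particle to the precursor, was at 10.83 in NSC-631570 cells and 11.42 and 10.87 in untreated cells, and its difference (−0.31) was smaller than the untreated gap of 0.55. WDR74 was at 9.01 in NSC-631570 cells and 9.23 and 9.34 in untreated cells, and PPAN at 9.24 in NSC-631570 cells and 9.29 and 9.47 in untreated cells. NIP7 lay in the middle of its untreated range, at 11.56 in NSC-631570 cells and 11.75 and 11.37 in untreated cells.

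Over all probe sets, too, more of those of the members lay below both untreated arrays than above both, beside a background that was itself lower than over brightest probe sets. Of the 107 member probe sets 96 passed the filter, and 57 of these (59.4%) lay below both untreated arrays and 25 (26.0%) above both, where 34.5% and 40.7% of all 27249 probe sets did. Limma with adjustment over all probe sets called 5 member probe sets lower and none higher, which is 5.21% of them, beside a background of 2.38% lower and 0.554% higher. They belong to MRTO4, NOP14, NOP58, POLR1A and RRP1, and none is the brightest of its gene. At an unadjusted p under 0.05 there were 18 lower and 1 higher, where 9.55% and 8.31% of all probe sets were. Without the signal filter 3 of the 5 calls remained (MRTO4, NOP14 and POLR1A), and after quantile normalisation 2 did (MRTO4 and NOP14).

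Whether a gene read lower depended in part on which of its probe sets was read. Of 28 members with several probe sets past the filter, 15 were lower than the untreated mean on every one, 5 were higher on every one and 8 had both signs. In 12 of the 28 every probe set lay below both untreated arrays: DDX21, DKC1, GAR1, MRTO4, NCL, NOLC1, NOP14, NOP2, NOP58, RRP12, TSR1 and WDR43. The brightest probe set of DKC1 did so by 0.0052 only. The shares of such genes across the array, by sign or by position, were not counted. The brightest probe set and the median of the others had opposite signs in 17.9% of these members and in 36.6% of such genes across the array. The brightest probe set read higher than the median of the others in 22 of the 28 members (78.6%), and in 69.9% of 7124 genes across the array. On 8 members the brightest probe set carries the x suffix, and of these 3 lay below both untreated arrays and 5 above both (median 0.15), while of the 31 others 18 lay below both (median −0.12). The dimmer probe sets of a gene had a median difference of −0.15 in the members and −0.05 over the array. The 5′ controls of ACTB and GAPDH were lower in the same array. Positions of the probe sets along the transcripts are not used here, so their part in these differences was not tested.

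**Figure D3:**
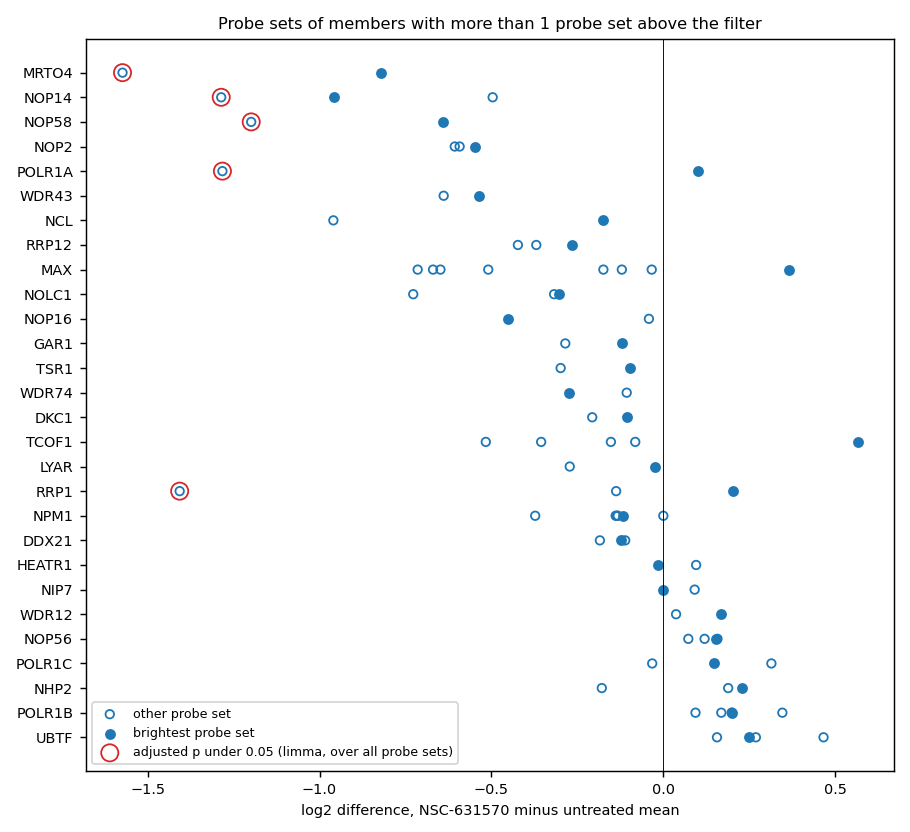
Log2 difference between the NSC-631570 array and the untreated mean (horizontal axis) for every probe set past the filter of the 28 members with several of them, ordered by gene median. Filled points are the brightest probe set of a gene, open points the others, and red rings mark the 5 that passed limma over all probe sets. In POLR1A, RRP1, TCOF1 and MAX the filled point lies right of 0 and most or all open points left of it.

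The rest of the ribosome assembly and polymerase I pathway, in lists of genes that are not members, had median log2 differences between −0.07 and 0.05 by list, beside −0.10 over the tested members and 0.12 over all genes, and these medians were not tested against each other. No gene of these lists passed limma over all genes in either direction. Of 42 other small subunit factors tested, 17 lay below both untreated arrays and 14 above both (median −0.07). UTP14A stood at 5.71 in NSC-631570 cells and 6.70 and 6.80 in untreated cells (−1.04 ± 0.22, limma adjusted p = 0.124). Its treated value lies under the filter of 5.85. TSR2 stood at −0.79 and IMP3 at 0.74. Of 38 other large subunit factors 11 lay below both and 11 above both (median 0.03), led by LAS1L (−0.69), the SUMO protease SENP3 (0.57) and RRP15 (−0.46). The other probe sets of LAS1L (−0.03) and RRP15 (0.11) did not show these differences.

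Of 17 other RNA polymerase I subunits and factors 6 lay below both untreated arrays and 7 above both (median 0.05). RRN3, the factor that recruits RNA polymerase I to its promoter, stood at 9.33 in NSC-631570 cells and 9.84 and 9.96 in untreated cells (−0.57 ± 0.22, adjusted p = 0.284), and its 2 other probe sets had a median of −0.97. POLR2E, a subunit shared by the RNA polymerases, stood at −0.62 (4 others, median −1.01), and TBP at −0.52 with another at 0.12. Of 10 snoRNP assembly factors 4 lay below both and 2 above both (median 0.02). RUVBL1, an ATPase of the R2TP complex that assembles snoRNPs, stood at 9.09 in NSC-631570 cells and 10.24 and 10.36 in untreated cells (−1.21 ± 0.22, adjusted p = 0.0901), and its 2 other probe sets had a median of −1.26. Its partner RUVBL2 differed by 0.20 (3 others, median 0.05), and TGS1 by −0.27 with another probe set at −1.06. Of 15 exosome and nuclease genes 4 lay below both and 6 above both (median −0.01), led by EXOSC4 (0.56), EXOSC6 (0.52) and EXOSC10 (0.35), the last with another probe set at −1.65.

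Of 11 MYC network factors 6 lay above both untreated arrays and 2 below both, where 51.6% of all tested genes lay above both. Their median was 0.30, or 0.03 from untreated 1 and 0.47 from untreated 2, beside 0.11 and 0.13 over all tested genes. MGA, a MAX partner, stood at 0.90 (2 others, median −0.33). The MYC antagonists MXD3 and MXD1 stood at 0.83 and 0.63, MXD3 with another probe set at −0.24. Of 16 MYC targets outside the pathway 8 lay below both and 5 above both, where 22.5% of all tested genes lay below both. The median of these targets was −0.09, beside −0.10 over the members. CCND2 stood at −0.68, CDK4 at −0.50 and the arginine methyltransferase PRMT5 at 0.57.

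**Figure D4:**
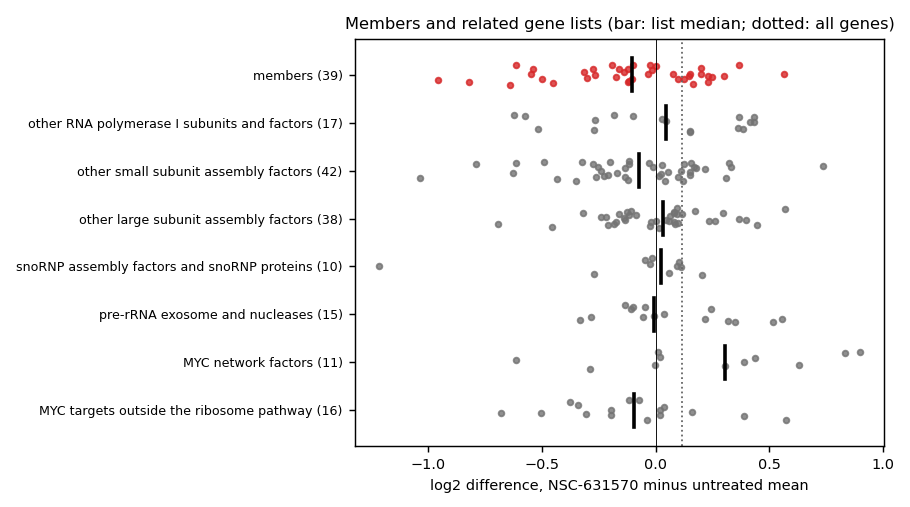
Log2 difference between the NSC-631570 array and the untreated mean (horizontal axis) of the members (red, top row) and of 7 lists of related genes (grey), with 1 point for each gene by its brightest probe set, a bar at each list's median and the number of genes in brackets. The dotted line is the median of all tested genes (0.12), and the members' median (−0.10) and that of MYC network factors (0.30) lie on opposite sides of it. Taken from untreated 1 alone, the network median is 0.03, below the 0.11 of all tested genes. From untreated 2 alone it is 0.47, above their 0.13.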

How the data were processed

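Total RNA of 1 NSC-631570 culture and 2 untreated controls was measured on single-colour expression arrays. The deposited values are log2 signals. Per the submitters' processing notes the authors used Affymetrix Expression Console. Algorithm, version and normalization: not given in the sources used here. Values were taken without further scaling, and the log2 scale was read from their range.

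Probe sets were named by the platform annotation: of 49395, 44988 named 1 gene, 1832 named several, 102 are controls and 2473 were unnamed here. Among those naming several genes, 3 name a member and were not used. Each gene was read from its brightest probe set by the mean of the 3 arrays. Probe sets with a mean under the 40th percentile (5.85) were left out. Limma (version 3.58.1, R 4.3.3) fitted NSC-631570 minus untreated over all 11932 genes, and separately over all 27249 probe sets, with 1 residual degree of freedom, 6.90 prior degrees of freedom in the gene fit, and Benjamini-Hochberg adjustment at 0.05. The fit gives the treated array the same variance as the untreated arrays. The fit was tested on simulated data in which the treated array varied like the untreated ones, so equal variance was not checked there. The number of arrays limits the precision. Promoter windows are RefSeq's, and they were searched after values had been seen.

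Members and lists were chosen with earlier results of these data known, and lists are described by counts and medians without a list test. A further list of related genes is not reported here. All members were to be named, with at most 3 genes of each other list, those with the largest absolute difference. Alternatives were other normalisations, filters, probe set choices, prior variances and leaving out each untreated array.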

Additional observations from a re-analysis of the deposited data

How the results depend on the processing

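No member passed limma's threshold under any of the 8 alternative fits, with smallest adjusted p-values from 0.0669 to 0.181. The count below both untreated arrays, 21, ran from 17 (arrays centred on all probe sets) to 27 (arrays centred on the tested genes, or genes averaged over probe sets). The share of all genes below both, 22.5%, moved with it, to 18.0% at 17, and to 46.4% and 32.8% at the 2 counts of 27. Counted against the remaining array alone it was 22 or 24 without untreated replicate 1 or 2, beside 33.9% or 36.9% of all genes. The median difference, −0.10, was −0.0689 or −0.0687 without untreated replicate 1 or 2, −0.30 for arrays centred on the tested genes (−0.08 over all genes), −0.062 for arrays centred on all probe sets (0.16 over all genes) and −0.16 for genes averaged over probe sets (0.04 over all genes). The called member probe sets, 5, were 3 without a filter and 2 after quantile normalisation, all among the 5.

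Of 312 single-gene values under the 8 alternative fits 18 changed sign, and of 78 against 1 untreated array 4 did. The 4 were HEATR1 (0.021) and LYAR (0.031) without untreated replicate 1, and MYC (0.25) and NIP7 (−0.19) without untreated replicate 2. The 18 were, for arrays centred on the tested genes, BYSL (−0.12), NIP7 (−0.20), NOP56 (−0.043), POLR1A (−0.10), POLR1C (−0.048), RRP9 (−0.072) and WDR12 (−0.030), and for arrays centred on all probe sets HEATR1 (0.028), LYAR (0.018) and MYC (0.0098). For genes averaged over their probe sets, also those under the filter, they were MAX (−0.19), POLR1A (−0.59), RRP1 (−0.45), TCOF1 (−0.11) and WDR12 (−0.0067). After quantile normalisation it was NIP7 (−0.0027). With the brightest probe set chosen on untreated arrays alone, added after seeing the data, they were MAX (−0.033) and TCOF1 (−0.36). The cause was not tested. No paired analysis was possible because the treated condition has 1 array. With 1 array on each side no test was made. The planned change of pseudocount was not run, since the values are on a log scale.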
